A study of Mus musculus with 4 samples.

Results

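Neuropeptide Y, galanin, the 2 peptides most closely related to neuropeptide Y and 6 of their receptors were examined in insulin-positive cells made from mouse gallbladder. The 10 genes (Npy, Ppy, Pyy, Gal, Npy1r, Npy2r, Npy5r, Galr1, Galr2 and Galr3) were taken by symbol from the 20377 genes of the deposited table. The set was selected on the mean RPKM of Npy and Gal in these same libraries, which are among the highest of the table, so the levels of these 2 genes are given as a description and were not tested. All 10 had a row, and none was listed at 0 in every library. The cells were primary gallbladder cells from 8-week-old mice of C57BL/6 background of the reporter strain B6.Cg-Tg(Ins1-EGFP)1Hara/J, called MIP-GFP, whose transgene puts green fluorescent protein under an Ins1 promoter. They were expanded in culture, given the transcription factors Pdx1, Ngn3, Mafa and PAX6 with compounds that the labels do not name over 10 days, and sorted on the reporter. The samples form 1 group, rGBC2, of 4 RNA sequencing libraries, all of which share the transgene, the 4 factors and the sort. No control group was analysed here. The labels do not state whether the 4 libraries came from separate animals or cultures, so every SD and p-value measures the spread between these libraries only, part of which may be technical.

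Neuropeptide Y, peptide YY and pancreatic polypeptide form 1 peptide family whose members end in an amidated tyrosine and act on Y receptors, which couple to inhibitory G proteins. Neuropeptide Y is made by sympathetic and brain neurons and by islet cells before maturity, where it restrains insulin release. Galanin is an unrelated neuropeptide, amidated in rodents, of sympathetic and enteric nerves that also restrains insulin release, and it acts on 3 receptors, of which Galr1 and Galr3 couple to inhibitory G proteins and Galr2 mainly to Gq.

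The upstream sequences of the 4 peptide genes are shown because the level of Npy and Gal differed so widely from that of Ppy and Pyy. RefSeq promoters of build GRCm38.p6 were at hand for 8 of the 10 genes. Each sequence below is the 250 bases before the annotated start, 5′ to 3′ on the gene's strand. They lie at chr6:49822460-49822709 on the plus strand for Npy, and on the minus strand at chr19:3414545-3414794 for Gal, chr11:102101320-102101569 for Ppy and chr11:102107833-102108082 for Pyy, for which the first of 2 listed starts was used. Capitals mark GGGCGG, the GC box, and CANNTG, the E-box core that basic helix-loop-helix factors such as Neurog3 bind, each searched on both strands.
Npy: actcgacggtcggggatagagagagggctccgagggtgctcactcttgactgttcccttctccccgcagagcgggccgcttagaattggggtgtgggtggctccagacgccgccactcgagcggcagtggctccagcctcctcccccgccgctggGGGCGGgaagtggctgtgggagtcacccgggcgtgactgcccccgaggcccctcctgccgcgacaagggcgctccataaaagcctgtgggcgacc
Gal: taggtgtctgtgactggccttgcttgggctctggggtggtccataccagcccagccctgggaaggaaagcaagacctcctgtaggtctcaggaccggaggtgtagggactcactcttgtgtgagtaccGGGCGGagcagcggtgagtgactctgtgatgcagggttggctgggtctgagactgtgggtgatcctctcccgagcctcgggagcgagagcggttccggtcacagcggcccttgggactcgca
Ppy: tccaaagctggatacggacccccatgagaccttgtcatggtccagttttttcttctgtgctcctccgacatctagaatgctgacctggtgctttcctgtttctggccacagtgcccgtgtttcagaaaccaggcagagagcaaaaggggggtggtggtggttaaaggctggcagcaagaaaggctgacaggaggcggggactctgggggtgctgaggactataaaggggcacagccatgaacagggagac
Pyy: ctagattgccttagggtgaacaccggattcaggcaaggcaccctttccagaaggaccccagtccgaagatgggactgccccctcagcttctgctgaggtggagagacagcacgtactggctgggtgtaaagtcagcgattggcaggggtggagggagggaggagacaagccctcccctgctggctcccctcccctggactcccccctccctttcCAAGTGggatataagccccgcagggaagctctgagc
The GC box was present once in the window of Npy and once in that of Gal and was not matched in those of Ppy and Pyy. It occurred in 32.7% of 32851 promoter windows of the same length. The E-box core was matched once, in Pyy, and occurred in 66.2% of windows. TAAT, the core that homeodomain factors such as Pdx1 recognise, was matched in none of the 4 and occurred in 54.9% of windows. TGACG was also searched, was matched in none of the 4 and occurred in 17.8% of windows. The GC box did not follow the level in the receptor genes with a promoter at hand. Npy2r, at or next to 0 RPKM, had 1 GC box, whereas Npy1r and Galr2, which were transcribed, had none, as had Npy5r. Each of these receptor windows held 1 E-box core. The motifs do not overlap one another in the 4 printed sequences. They were picked with the levels known, and a match or its absence is a description of the letters only.

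The libraries differed in ways that touch the values below. Estimated depth was 24.1, 22.1, 24.6 and 33.1 M reads for replicates 1 to 4, from an estimate described with the processing. Replicates 1 and 2 held reads of 4 Y-linked genes, such as Eif2s3y at 48.5 and 44.7 RPKM, that were listed at 0 in replicates 3 and 4. The libraries thus hold RNA of at least 2 sources, and the n of 4 may stand for as few as 2. Every pair of libraries differed by more than sampling noise, replicates 3 and 4 the least. In the check of the labelled cells, Ins2 was at 1091 to 4240 RPKM and Ins1 at 107 to 523 RPKM. Of 9 genes of gallbladder epithelium 8 lay above 1 RPKM in limma's test, against 65.0% of all genes tested. Among them were Krt7 at 635 ± 186 RPKM (SD, n = 4) and Krt18 at 327 ± 124 RPKM. The remaining gene, Sox9, was at 1.2, 0.92, 0.64 and 0.61 RPKM in replicates 1 to 4. Limma called Sox9 neither above nor below (adjusted p = 0.25). RPKM is the number of reads per kilobase of transcript and per M mapped reads (M for a unit of 1000000), so it allows levels of different genes to be set side by side. It makes no correction for the GC content of a transcript. Libraries pool many cells, and fewer cells of a type cannot be told apart from less RNA per cell.

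Npy, on chromosome 6 from 49772728 to 49779504 (plus strand; positions of the members are given in build mm9), was measured at 17394, 21790, 36324 and 38651 RPKM in replicates 1 to 4. It held the first rank in each library. Replicates 3 and 4 were both higher than replicates 1 and 2, and the highest value was 2.22 times the lowest. The mean was 28539 ± 10530 RPKM (SD, n = 4), or 2.73 times that of the second gene, Amelx, which encodes the enamel protein amelogenin. With a transcript of 566 bases, Npy drew 0.984%, 1.23%, 2.06% and 2.19% of all mapped reads in replicates 1 to 4.

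Gal, on chromosome 19 from 3409917 to 3414457 (minus strand), was measured at 3174, 1429, 4243 and 4579 RPKM in replicates 1 to 4. Replicate 2 was low and the other 3 libraries lay closer together. Gal ranked 5, 22, 7 and 6 in these libraries. Its mean of 3356 ± 1417 RPKM (SD, n = 4) placed it sixth, between Cpe, the carboxypeptidase that trims prohormones, at 4034 ± 1048 RPKM and Sst, the delta-cell hormone somatostatin, at 3276 ± 3154 RPKM. The next further on either side were Gnas, the stimulatory G protein subunit, at 4080 ± 352 RPKM and Ins2 at 3221 ± 1438 RPKM.

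The 2 peptides did not keep a fixed proportion. Npy exceeded Gal 5.48-fold, 15.2-fold, 8.56-fold and 8.44-fold in replicates 1 to 4, with a mean ratio of 9.43 ± 4.13 (SD, n = 4). The ratio was highest in replicate 2, where Gal was lowest, and nearly equal in replicates 3 and 4. Without replicate 2 the mean ratio was 7.49.

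**Figure D1:**
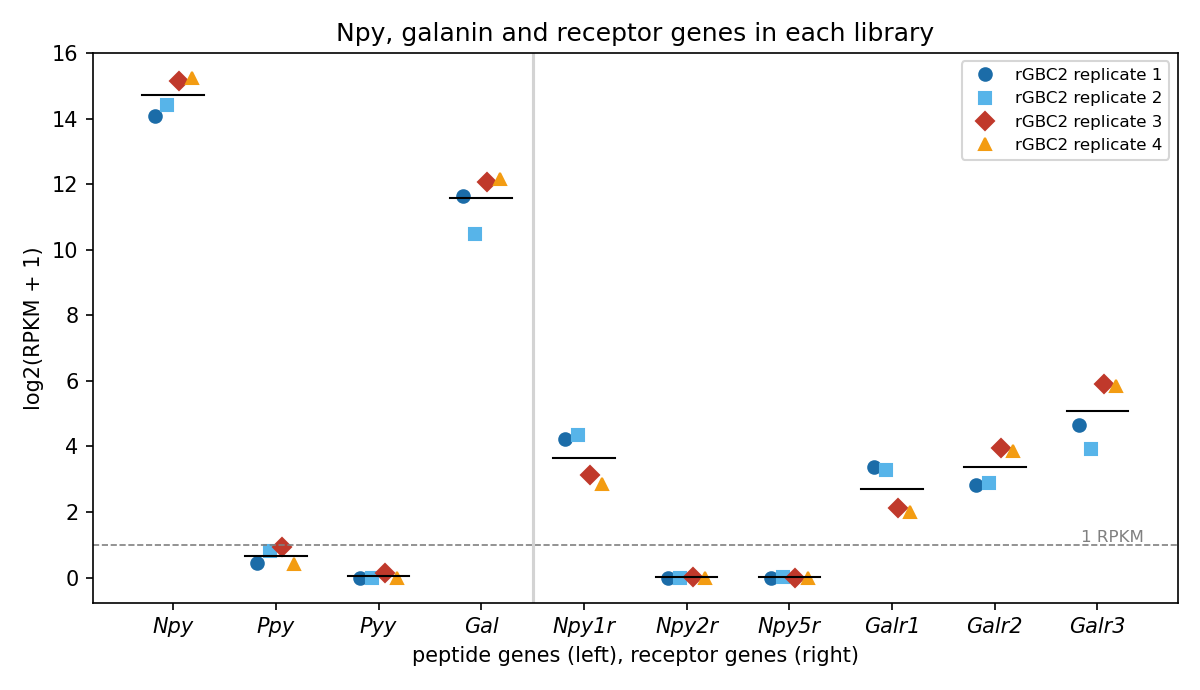
Level of each gene as log2(RPKM + 1) on the vertical axis, with 1 point per rGBC2 library, a bar at the mean of the 4 libraries and a dashed line at 1 RPKM. Npy and Gal stand far above all receptor genes, Ppy lies just under the dashed line, and Pyy, Npy2r and Npy5r lie at or next to 0.

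Npy exceeded every islet hormone in every library, whereas the place of Gal among them shifted. Npy was 15.9, 5.88, 9.43 and 9.12 times Ins2 in replicates 1 to 4. Gal was 2.91 times Ins2 in replicate 1, 0.386 times in replicate 2 and 1.1 and 1.08 times in replicates 3 and 4. Against Sst, Gal was higher in replicates 1 and 2, at 4.78 and 3.11 times, and lower in replicates 3 and 4, at 0.761 and 0.714 times. Of the summed RPKM of 39 peptide hormone and neuropeptide genes, Npy made up 68.4%, 62.1%, 61.7% and 60.5% in replicates 1 to 4, and Gal 12.5%, 4.07%, 7.21% and 7.17%. The share of Npy varied less between libraries than its RPKM did. Since Npy is most of the sum it is divided by, this is in part so by construction and nothing is read from it.

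**Figure D2:**
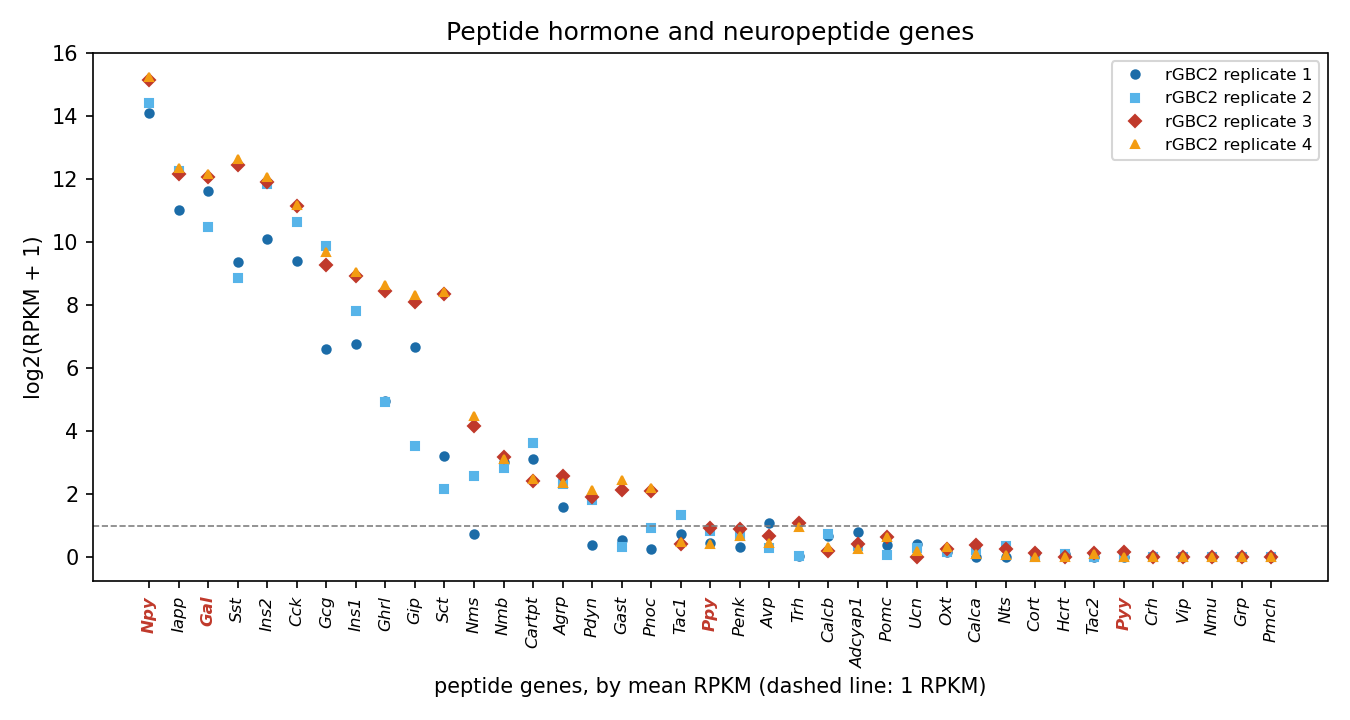
Level of 39 peptide genes as log2(RPKM + 1), in order of mean RPKM, with 1 point per rGBC2 library and the genes Npy, Gal, Ppy and Pyy in bold red. Npy leads in all 4 libraries, Gal takes the third place by mean among these genes, and most other neuropeptides lie under the dashed line at 1 RPKM.

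The family members closest to Npy were under 1 RPKM. Ppy encodes pancreatic polypeptide, the hormone of islet PP cells, and lies on chromosome 11 from 101961245 to 101962614. It was measured at 0.36, 0.77, 0.92 and 0.34 RPKM in replicates 1 to 4, from an estimated 4 to 11 reads a library. Its mean of 0.598 ± 0.292 RPKM (SD, n = 4) lay below 1 RPKM in limma's moderated test over all genes (adjusted p = 0.025), a call that was lost without replicate 1 (adjusted p = 0.0958) and without replicate 4 (adjusted p = 0.086). Pyy, which encodes the gut hormone peptide YY, lies 5.4 kilobases away on the same strand, from 101967991 to 101969090. It had a value in replicate 3 alone, 0.11 RPKM, which is under the 0.22 RPKM that 3 reads would give there. In the libraries at 0, a count of 0 allows up to 0.224, 0.245 and 0.163 RPKM in replicates 1, 2 and 4, counting error only.

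Among the Y receptors 1 gene carried nearly all of the signal. Npy1r, on chromosome 8 from 69221321 to 69230697, encodes the Y1 receptor, which neuropeptide Y and peptide YY activate. It was measured at 17.7, 19.4, 7.84 and 6.23 RPKM in replicates 1 to 4. Replicates 1 and 2 were higher than replicates 3 and 4, the reverse of Npy itself. On the log2(RPKM + 1) scale its level exceeded 1 RPKM by 2.64 (SE 0.30, limma, adjusted p = 0.000315). Npy5r, the gene of the Y5 receptor, known for its role in feeding, lies 9.3 kilobases from Npy1r on the opposite strand, from 69203864 to 69211993, so that the 2 genes are read away from each other. It was at 0.02 RPKM in replicate 2, about 1 read, and listed at 0 in the others. Npy2r, the gene of the mostly presynaptic Y2 receptor on chromosome 3 from 82342305 to 82352007, was at 0.01 RPKM in replicate 3 and listed at 0 in the others. Both lay below 1 RPKM (limma, adjusted p = 2.29e-07 each). Other genes at or next to 0, such as Crh and Dbh, had the same adjusted p. Values at this floor hardly vary, so its size says little about the spread between libraries. In the libraries at 0, 3 reads would have given 0.0269 to 0.0404 RPKM of Npy2r and 0.0392 to 0.0538 RPKM of Npy5r.

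All 3 galanin receptor genes were transcribed. Galr3, on chromosome 15 from 78872315 to 78873988, was measured at 24.3, 14.3, 58.6 and 56.3 RPKM in replicates 1 to 4. Galr2, on chromosome 11 from 116142253 to 116145252, was at 6.14, 6.34, 14.5 and 13.7 RPKM. Both were higher in replicates 3 and 4 than in replicates 1 and 2. Galr1, on chromosome 18 from 82561888 to 82576169, went the other way, at 9.28, 8.79, 3.33 and 3.02 RPKM. In limma's test the 3 genes lay above 1 RPKM, Galr3 by 4.08 (SE 0.37), Galr2 by 2.38 (SE 0.26) and Galr1 by 1.69 (SE 0.31) on the log2(RPKM + 1) scale, with adjusted p = 9.59e-05, 0.000245 and 0.00271. Galr3 made up 61.2%, 48.5%, 76.7% and 77.2% of the summed galanin receptor RPKM in replicates 1 to 4, while Galr1 made up 23.4%, 29.9%, 4.35% and 4.14%.

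Counted over the 8 genes other than Npy and Gal, 4 lay above and 4 below 1 RPKM in limma's test. Of all 16919 genes tested, 65.0% lay above and 26.1% below it. Nothing particular to the 8 genes is read from these shares. Pyy, Npy2r and Npy5r entered the test through a value above 0 in 1 library each.

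The order of the 4 transcribed receptor genes changed between libraries. By mean RPKM it was Galr3, Npy1r, Galr2 and Galr1, but no pair of neighbours differed by more than its spread. On the log2(RPKM + 1) scale Galr3 exceeded Npy1r by 1.44 ± 1.69 (SD, n = 4) but was lower than it in replicate 2. Npy1r exceeded Galr2 by 0.26 ± 1.36, with Npy1r higher in replicates 1 and 2 and Galr2 higher in replicates 3 and 4. Galr2 exceeded Galr1 by 0.69 ± 1.34, again with opposite directions in the 2 pairs of libraries. The mean difference of Npy1r from Galr2 turned to -0.12 without replicate 1 and to -0.15 without replicate 2. Galr1, the lowest of the 4, exceeded Ppy by 2.04 ± 0.80 in 4 of 4 libraries.

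**Figure D3:**
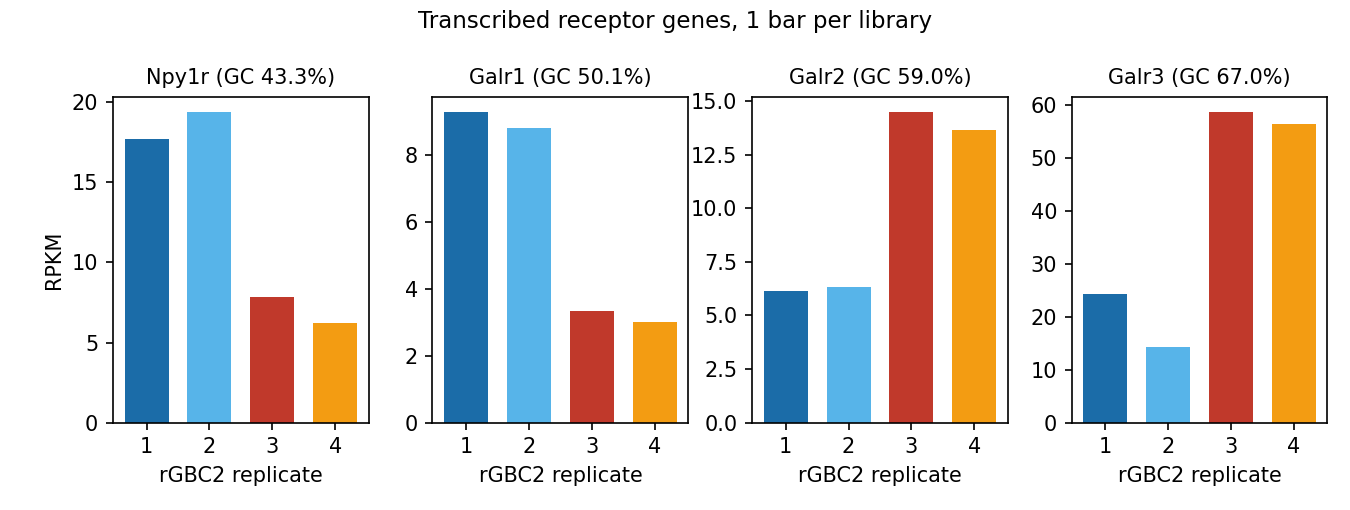
RPKM of the 4 transcribed receptor genes, 1 bar per rGBC2 library, each panel with its own vertical axis from 0 and the GC content of the transcript in its title. Npy1r and Galr1 are higher in replicates 1 and 2, Galr2 and Galr3 in replicates 3 and 4.

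Galanin receptors together exceeded Y receptors together. The sum of Galr1, Galr2 and Galr3 was 39.7, 29.4, 76.5 and 73.0 RPKM in replicates 1 to 4, and the sum of Npy1r, Npy2r and Npy5r was 17.7, 19.4, 7.85 and 6.23 RPKM. The former was 2.24, 1.51, 9.74 and 11.7 times the latter, so the direction was the same in 4 of 4 libraries and the size was not. The largest part of the 2 sums came from Galr3, with 67.0% GC in its transcript, and Npy1r, with 43.3% GC. Whether GC content has a part in the difference between the sums was not tested. The difference of Y receptors from galanin receptors was -2.05 ± 1.40 on the log2(summed RPKM + 1) scale (SD, n = 4), with p = 0.125 when the signs of the 4 differences were permuted (exact test, two-sided). This is the smallest p that 4 libraries allow, so the test could not pass 0.05. The peptides and the receptors were thus in opposite order, with Npy above Gal and the galanin receptor sum above that of the Y receptors in every library.

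The difference between replicates 3 and 4 and replicates 1 and 2 was set beside GC content, since low-GC and high-GC transcripts differed between these pairs of libraries. This split follows the Y-linked reads and not the study's labels, and no test was made of it. Across 7432 genes of at least 10 RPKM, the difference in mean log2(RPKM + 1) correlated with transcript GC content (Spearman 0.614 across genes, which are not independent replicates). The difference was 0.94 for Npy, 1.05 for Gal, 1.06 for Galr2 and 1.57 for Galr3, and -1.29 for Npy1r and -1.27 for Galr1. Among other hormone and enzyme genes reported here, it was 3.43 for Sst, 2.27 for Pcsk2, 1.69 for Ins1 and 1.01 for Ins2. For Ece1, Cpe and Pam it was 0.86, 0.61 and 0.19. Npy1r, with 43.3% GC, lay between the 10th and 90th percentiles of the 1192 genes with 40 to 45% GC, which were -1.44 and 0.01. Galr1, with 50.1% GC, lay below the 10th percentile of the 2123 genes with 50 to 55% GC, which was -0.42, and Npy, with 53.7% GC, lay above their 90th percentile of 0.68. Gal and Galr2, with 55.5% and 59.0% GC, lay above the 90th percentile of 0.78 of the genes with 55 to 60% GC. Galr3, with 67.0% GC, lay above the 90th percentile of 0.66 of only 25 genes with 65 to 70% GC. Whether GC content has a part in these differences was not tested.

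**Figure D4:**
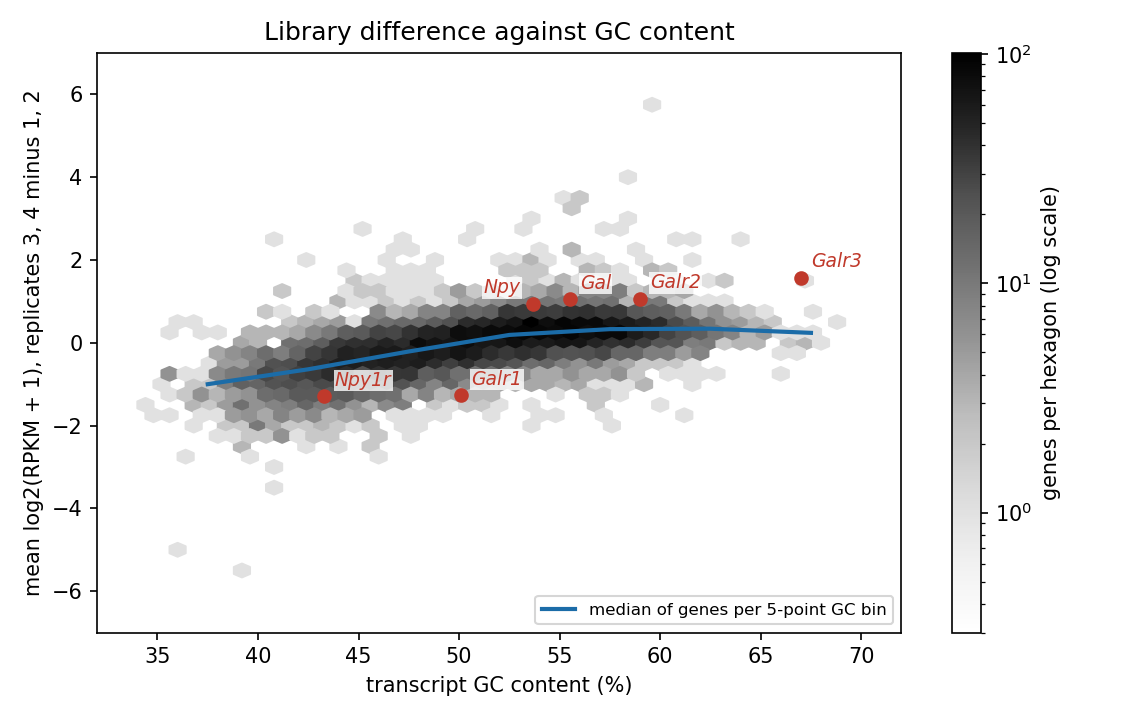
Difference in mean log2(RPKM + 1) between replicates 3 and 4 and replicates 1 and 2 against transcript GC content in percent, with grey hexagons for 7432 genes of at least 10 RPKM, a blue line through the median of each 5-point GC bin and red points for 6 receptor and peptide genes. Npy1r lies within the cloud of genes of like GC content, and the other 5 lie towards or beyond its edge. Galr1 has a mean under 10 RPKM and is drawn without being part of the cloud.

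Genes whose pattern over the 4 libraries was most like that of Npy or Gal were sought among genes of at least 10 RPKM. Likeness was the root mean square difference of log2(RPKM + 1) after each gene was centred on its own mean, over 4 libraries. The closest to Npy were Map1lc3b, an autophagosome protein, at 0.0069, Ankrd13a at 0.023, Hes6, a helix-loop-helix factor of neural and endocrine precursors, at 0.024, Pkm2, pyruvate kinase, at 0.025 and Tecr, an enzyme of fatty acid elongation, at 0.031. The median gene was at 0.518. The closest to Gal were Fam163a at 0.012, Ambp, a plasma protein precursor, at 0.076, Gtf3c1, a subunit of the RNA polymerase III factor TFIIIC, at 0.089, Hist1h1c, a linker histone, at 0.093 and Chrnb4, a nicotinic receptor subunit, at 0.11, against 0.682 for the median gene. Each of the genes nearest to Gal was lowest in replicate 2, as Gal was, which follows from the way they were chosen. With 4 libraries many genes share a pattern, and this is a description.

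Related peptide systems were low. Of 14 further genes of the RF-amide, kisspeptin and galanin-like peptides and of receptors related to those above, 2 lay above 1 RPKM, 8 below, 2 in neither direction, and 2 were listed at 0 in every library. Among all genes tested, 65.0% lay above and 26.1% below. The 2 related genes above 1 RPKM were Kiss1r, the kisspeptin receptor, at 2.79 ± 0.553 RPKM (SD, n = 4) and Kiss1, kisspeptin, at 2.34 ± 0.910 RPKM. Kiss1 lost its call without replicate 2, without replicate 3 or without replicate 4 (adjusted p of limma 0.0721, 0.0716 and 0.0675), which left 1 gene above. The Y4 receptor gene, under its older symbol Ppyr1, had 0.09, 0.02, 0 and 0.03 RPKM in replicates 1 to 4, and Qrfpr, a receptor for an RF-amide peptide, was at 0.03 RPKM in replicate 2 and listed at 0 in the others.

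High levels did not extend to neuropeptides in general. Of 25 other neuropeptide genes 4 lay above 1 RPKM, 13 below, 4 were called neither and 4 were at 0 throughout. Among all genes tested, which leave out those at 0 throughout, 65.0% lay above and 26.1% below. The median of the 25 genes was 0.368 RPKM against 7.38 RPKM over all genes tested. Nms, neuromedin S, was the highest at 0.67, 5.03, 16.9 and 21.4 RPKM in replicates 1 to 4, a call above 1 RPKM that was lost without replicate 2, 3 or 4 (limma, adjusted p = 0.0737, 0.0758 and 0.0731) and with no mean-variance trend (adjusted p = 0.0519). Nmb, neuromedin B, was at 7.27 ± 0.904 RPKM (SD, n = 4) and Cartpt, the CART peptide, at 7.01 ± 3.30 RPKM. Crh, corticotropin-releasing hormone, was at 0.03 RPKM in replicate 1 only, and Tac2, neurokinin B, at 0, 0, 0.09 and 0.07 RPKM. Of 10 islet and gut hormone genes, 9 lay above 1 RPKM and none below, against the same 65.0% and 26.1% of all genes tested. They were led by Iapp, the islet amyloid peptide, at 4169 ± 1423 RPKM, with Sst and Ins2 at the levels given above.

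The enzymes that turn prohormones into active peptides spanned a wide range of levels. Of 11 genes of peptide maturation, 7 lay above 1 RPKM, 2 below and 2 in neither direction, which is near the 65.0% above and 26.1% below among all genes tested, with a median of 31.2 RPKM. Besides Cpe, they were led by Ctsl, cathepsin L, at 1629 ± 875 RPKM (SD, n = 4) and Pcsk2, the prohormone convertase PC2, at 161, 104, 623 and 640 RPKM in replicates 1 to 4. Pcsk2 was higher in replicates 3 and 4, as Npy was. Pam, the enzyme that amidates neuropeptide Y and galanin at their C-terminal end, was at 36.7 ± 4.62 RPKM, with little spread between libraries. Pcsk1, the convertase PC1/3, stood near the level tested, at 0.1, 0, 1.95 and 1.67 RPKM, and limma called it neither above nor below (adjusted p = 0.519). Pcsk5 at 0.32 ± 0.0622 RPKM and Scg5, the chaperone of PC2, at 0.59, 0, 0.5 and 0.83 RPKM were the 2 below. The call of Scg5 was lost without replicate 1 (limma, adjusted p = 0.0518) and with a pseudocount of 0.1 (adjusted p = 0.0542), which left 1 gene below.

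Peptidases of the list for peptide breakdown were mostly low. Whether each of them cuts neuropeptide Y or galanin was not examined. Of 9 genes, 2 lay above 1 RPKM, 4 below, 2 were called neither and 1 was listed at 0 throughout, with a median of 0.298 RPKM. Among all genes tested, 65.0% lay above and 26.1% below. Ece1, endothelin-converting enzyme, stood at 405 ± 144 RPKM (SD, n = 4) and Ace, angiotensin-converting enzyme, at 5.15 ± 1.53 RPKM. Dpp4, which removes the first residues of neuropeptide Y and so narrows it to Y2 and Y5 receptors, had 2.79, 2.49, 0.99 and 0.88 RPKM in replicates 1 to 4, and limma called it neither above nor below (adjusted p = 0.13). Mep1a and Mep1b, the meprin subunits, were at 0.0525 ± 0.0403 and 0.128 ± 0.133 RPKM.

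Genes that couple these receptors to the cell were led by G protein subunits. Of 13, 10 lay above 1 RPKM, 2 below and 1 in neither direction, against 65.0% above and 26.1% below among all genes tested, and the median was 10.5 RPKM against 7.38 RPKM. Gnai2, an inhibitory G protein subunit, was at 194 ± 15.6 RPKM (SD, n = 4), Gnai3, another, at 67.9 ± 33.4 RPKM and Gna11, a subunit of the Gq class through which Galr2 signals, at 58.1 ± 9.87 RPKM. Of the inward rectifier channels that inhibitory G proteins open, Kcnj3 was at 4.33 ± 0.689 RPKM, whereas Kcnj6 was at 0.04, 0, 0.02 and 0.03 RPKM and Kcnj9 at 0.04, 0.03, 0 and 0.06 RPKM.

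**Figure D5:**
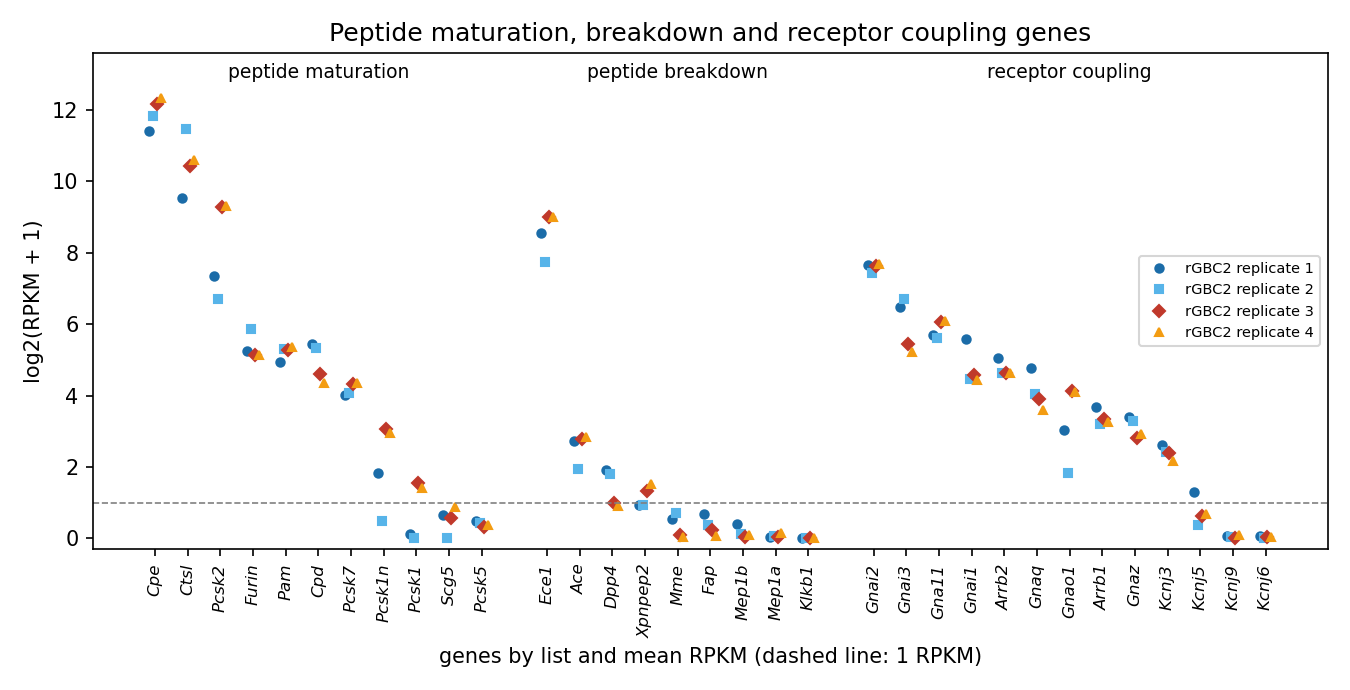
Level of genes of peptide maturation, peptide breakdown and receptor coupling as log2(RPKM + 1), in order of mean RPKM within each list, with 1 point per rGBC2 library. Cpe and Ctsl lead the maturation list, Ece1 alone stands high among the peptidases, and Kcnj6 and Kcnj9 lie next to 0.

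Markers of the nerve cells that make these peptides were measured in the same libraries. Of 14 neuronal genes, 5 lay above 1 RPKM, 5 below, 3 in neither direction and 1, Chat, was at 0 throughout. Among all genes tested, 65.0% lay above and 26.1% below. Those above were Stmn2, Prph, Th, Ret at 7.43 ± 2.63 RPKM (SD, n = 4) and Rbfox3 at 2.195 ± 0.784 RPKM. Stmn2, a neuronal microtubule regulator, was at 26.1, 7.52, 31.6 and 36.1 RPKM in replicates 1 to 4, Prph, peripherin, at 10.1 ± 1.77 RPKM (SD, n = 4) and Th, the first enzyme of catecholamine synthesis, at 12.5, 1.34, 11.8 and 12.1 RPKM. The summed RPKM of the list was 66.8, 25.1, 71.4 and 74.5, lowest in replicate 2, as Gal was. Lowest of the neuronal genes called below 1 RPKM were 2 genes of noradrenergic neurons, whose gene Th was above it. Dbh, dopamine beta-hydroxylase, was at 0.02 RPKM in replicate 2 only and Slc6a2, the noradrenaline transporter, at 0.02 RPKM in replicates 1 and 2 only. In limma's test no gene of 5 of glia, 5 of leukocytes, 4 of endothelium or 6 of mesenchyme was called above 1 RPKM. Single values did exceed it, as for S100b of the glial list at 2.81, 2.53, 0.38 and 0.32 RPKM in replicates 1 to 4. Of the mesenchyme list, Pdgfra was at 3.12, 1.06, 0.92 and 0.87 RPKM, and Col1a1 reached 1.34 RPKM in replicate 1. These genes were called neither above nor below. Sox10, a glial factor, had at most 0.05 RPKM, Fabp7, a glial lipid carrier, at most 0.28 RPKM, Ptprc, the leukocyte antigen CD45, at most 0.01 RPKM, Cd79a of B cells at most 0.08 RPKM and Kdr, an endothelial receptor, at most 0.04 RPKM. The part of neuronal transcripts in the level of Gal was not tested.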

How the data were processed

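Total RNA of 4 sorted samples was sequenced from TruSeq RNA v2 libraries, per the labels' protocols. The authors deposited RPKM values with 2 decimals, unpooled, each gene with 1 RefSeq transcript. The unit comes from the name of the table, as the header states none, and the depths and read estimates rest on it. Per the submitters' processing notes, CASAVA 1.8.2, Bowtie and build mm9 were used. How reads were counted, by strand or not, and how multiple matches were treated is not given in the sources used here. Another 6 per-sample columns match no sample and were not used. File starts count from 0 (896 of 993 short olfactory receptor genes span a multiple of 3), so 1 was added.

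Levels were tested against 1 RPKM with limma 3.58.1 in R 4.3.3 (moderated variance with trend, two-sided, Benjamini-Hochberg over the 16919 genes not at 0 in all libraries, threshold 0.05) on log2(RPKM + 1), which compresses differences of low genes. The script was tested on simulated data. The summed receptors were compared with an exact sign-flip permutation test in Python 3.11.15. RPKM holds no read totals. Depth was fitted so that low values (under 0.6 RPKM) of olfactory receptor genes were whole reads within 0.0051 RPKM, and these 14 to 32 values per library served for the fit itself. Since Gapdh is at 0 in 1 library, a 0 can be a failed estimate, so genes at 0 in any library are given by library. Transcript lengths and GC content came from GENCODE M21 (GRCm38), matched by RefSeq identifier for 98.1% of genes.

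The members and lists were chosen with earlier results of these data known, and 1 gene of the neuronal list is not reported here. Named by rule were all members, the 3 highest genes above and the 2 lowest below 1 RPKM of each list, the 10 most abundant genes, the neighbours of Gal and the 5 genes most alike Npy and Gal. Of the most abundant genes, those that bear on no result here are not repeated. Pam, Pcsk1, Dpp4, Kcnj3, Kcnj5, Ins1, Sox9, Chat, Ret, Rbfox3, S100b, Pdgfra, Col1a1 and Eif2s3y were added after their values were seen. Alternatives were another pseudocount, filter, scaling and variance model, and each library left out.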

Additional observations from a re-analysis of the deposited data

Results flagged for a closer look

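Dixon's criterion, the gap to the nearest other library over the whole range, was applied to 53 quantities. They were the RPKM of the members and of the genes named by rule from the lists, and the ratio of Npy to Gal. In 13 of them, all RPKM of genes, the value of 1 library stood apart from those of the other 3. Chance alone does so in about 1 of 20 groups of continuous values, a rate that does not apply to the 8 genes with 3 values of 0, for which the criterion is met whatever the fourth value is. Among the peptide and receptor genes these were Pyy at 0.11 RPKM in replicate 3, Npy2r at 0.01 RPKM in replicate 3 and Npy5r at 0.02 RPKM in replicate 2, each listed at 0 in the other libraries and each under the value of 3 reads. The same held for Qrfpr at 0.03 RPKM in replicate 2, Crh at 0.03 RPKM in replicate 1, Dbh at 0.02 RPKM in replicate 2, Cdh5 at 0.05 RPKM in replicate 2 and Col3a1 at 0.01 RPKM in replicate 4, all listed at 0 elsewhere. Pdgfrb reached 0.1 RPKM in replicate 1 against 0, 0 and 0.01 RPKM in replicates 2 to 4.

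Replicate 2 had the lowest Th, 1.34 RPKM, and the lowest Ace, 2.87 RPKM, and the highest Spp1, a secreted phosphoprotein of bile duct cells, at 1332 RPKM. Replicate 1 had the lowest Ins2, at 1091 RPKM.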

How the results depend on the processing

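Of 200 values recomputed under the alternatives, 185 were classed as unchanged, by a rule that depended on the kind of value. Levels of single genes had to keep their direction and their side of the threshold, and differences their direction. Means and ratios had to move by less than the spread between libraries. Counts of genes had only to stay within a fixed fold, so that a fall from 4 to 3 of the 8 genes below 1 RPKM was classed as unchanged. Keeping genes of at least 0.1 RPKM left 1889 genes below 1 RPKM instead of 4423, and 1 instead of 4 of the 8 genes tested here, since the genes removed are low ones. Scaling each library to the same sum, as TPM values have, gave mean levels of 52262 for Npy and 6193 for Gal, by construction, because every deposited sum is smaller. A pseudocount of 0.1 left 1 maturation gene below 1 RPKM instead of 2, and gave adjusted p = 0.0507 for Ppy at -0.76 (limma), against -0.34 and 0.025. The other adjusted p of Ppy under the alternatives reached at most 0.0958, without replicate 1.

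When each library was left out in turn, 2 to 3 of the 8 genes lay below 1 RPKM, with 2 without replicate 3, where Pyy and Npy2r are at 0 and untested. The count above was 4 each time. Between 1 and 2 related peptide and receptor genes lay above it, and 1 to 2 maturation genes below it. The mean of Npy ranged from 25169 to 32255 RPKM, that of Gal from 2949 to 3998 RPKM, their ratio from 7.49 to 10.7, and the receptor difference from -2.54 to -1.61. The difference of Npy1r from Galr2, an alternative added after seeing the data, reversed to -0.12 without replicate 1 and to -0.15 without replicate 2, from 0.26, and reached 0.68 without replicate 4. The cause was not tested. No paired analysis was possible because all samples form 1 group. Depth limits statements on Pyy, Npy2r and Npy5r.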
